A study of Mus musculus with 2 samples.

Results

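The salt-inducible kinases and the transcription factors, coactivators and phosphodiesterases of the cyclic AMP (cAMP) pathway were followed in splenic regulatory T (Treg) cells of healthy and leukemic mice. The set held 10 genes of the 23248 listed in either deposited table: the kinases Sik1, Sik2 and Sik3, the factors Crem and Creb1, the coactivators Crtc2 and Crtc3, and the phosphodiesterases Pde4b, Pde4d and Pde3b. They were chosen by name and found by NCBI Gene ID, after earlier results from the same FPKM values had placed Sik1 among the lowest ratios. Their ratios are therefore a description, with no test.

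All mice, healthy and leukemic, carried the Foxp3tm3(DTR/GFP)Ayr reporter allele on a B6.129(Cg) background and were aged 6 to 8 weeks; their Foxp3-expressing cells make a diphtheria toxin receptor and green fluorescent protein. The leukemia library came from spleens of mice with acute myeloid leukemia, into which 800000 leukemia cells had been transplanted without irradiation, with sorting at day 18 and a survival of 30 to 40 days. The healthy library came from mice given phosphate-buffered saline. Cells positive for CD4 and the Foxp3 reporter were sorted in both cases, and each group held 1 library, with the number of mice per library not given in the sources used here. A host left unirradiated keeps its own blood cells, so leukemic and host cells share the spleen.

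cAMP is made by adenylyl cyclases downstream of stimulatory G protein-coupled receptors and is broken down by phosphodiesterases. It activates protein kinase A, which phosphorylates the factor CREB and restrains the salt-inducible kinases. Those kinases hold the CRTC coactivators and class IIa histone deacetylases in the cytoplasm, so that cAMP releases CRTC proteins to CREB on its target genes. Sik1, the short repressor form of Crem and several PDE4 transcripts are themselves induced by this route and act as feedback. In Treg cells cAMP is high and has been linked to suppression, and Foxp3 represses Pde3b.

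The libraries were of nearly equal depth, with 8929601 estimated reads in the healthy library against 8897162 in the leukemia library. Foxp3 stood at 104 and 62.7 FPKM (fragments per kilobase of transcript per 1000000 fragments) and Cd4 at 267 and 184 FPKM in healthy and leukemia, and Cd8a at 1.33 and 1.28 FPKM. Cd8b1, the other CD8 gene listed, was higher than Cd8a, at 14.6 and 12.1 FPKM. Other cells were also represented. The 12 marker genes of myeloid progenitors and leukemia summed to 10.8 FPKM in the healthy library against 1296 FPKM in the leukemia library, and all 12 were higher in the leukemia library; Ms4a3 had 0 reads in the healthy library. The 12 macrophage markers summed to 1076 and 552 FPKM, all 12 with a log2 ratio below 0 and none at 0 reads. The 18 T cell receptor signalling genes summed to 4232 and 3092 FPKM, also with all 18 below 0. The summed levels in healthy and leukemia were 18.7 and 28.6 FPKM for B cell, 43.8 and 37.4 for CD8 T and NK cell, 142 and 104 for dendritic cell, 157 and 147 for erythroid and platelet, and 13.4 and 14.8 for neutrophil markers. Some sums came mostly from a single gene. Bst2 gave 134 and 79.8 FPKM of the dendritic cell sum, and Cxcr2 gave 10.6 and 8.40 FPKM of the neutrophil sum. Flt3, at 0.310 and 17.8 FPKM, is in both the dendritic cell and the leukemia list. What part these cells had in the results was not tested, and in bulk RNA fewer cells of a type and less RNA per cell cannot be told apart.

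Sik1 was much lower in the leukemia library, while the other 9 genes were slightly lower and under 2-fold. Ratios below are log2 of leukemia over healthy FPKM, each with 1 FPKM added, which understates the differences of low genes, and 2-fold refers to a value of 1 or -1 on that scale. Of the 10 genes 1 was at least 2-fold lower and 0 were at least 2-fold higher, where among the 13717 genes that reached 1 FPKM in at least 1 library the shares were 1.95% lower and 6.55% higher. All 10 genes passed that level in each library. All 10 log2 ratios were below 0, as were 46.9% of all genes, and the median was -0.29 against 0.02 for all genes. The exact 95% interval of the read ratio, which covers counting error only and compares the libraries rather than the conditions, lay below 1 for 8 of the 10 and for 23.5% of all genes. The exceptions were Sik2 and Crem. Centred on the T cell receptor signalling genes, which had a median log2 ratio of -0.44, the median of the 10 genes became 0.15 and that of all genes 0.46. On that scale Sik1 and Pde4b alone stayed below 0, at -1.41 and -0.25, and the counts over all genes moved from 898 higher and 267 lower to 1973 higher and 101 lower.

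**Figure D1:**
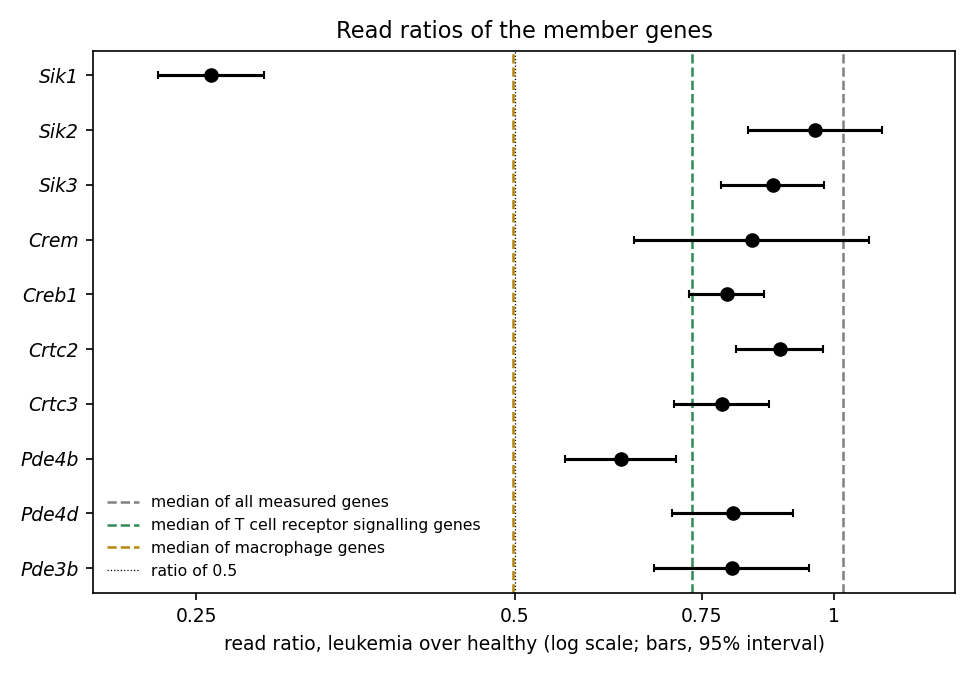
Read ratio of each gene, leukemia over healthy, on a log axis, with exact 95% intervals as bars; dashed lines give the medians of all measured genes, of T cell receptor signalling genes and of macrophage genes, and the dotted line a ratio of 0.5. Sik1 is at 0.258, and the other 9 genes lie between 0.629 and 0.959.

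The salt-inducible kinases are related to AMP-activated protein kinase and are switched on by the kinase LKB1. Sik1 (NCBI Gene 17691), the member whose transcription cAMP induces, stood at 35.1 FPKM on 1431 reads in the healthy library and at 9.05 FPKM on 368 reads in the leukemia library. The read ratio was 0.258, with an interval of 0.230 to 0.290, and the log2 ratio of -1.84 was the 46th lowest of the 13717 genes. It was lower in the leukemia library under all 8 alternatives, between -1.97 and -1.41. Alternatives that only change the filter leave this ratio as it is. Sik2 (235344), a kinase known from metabolic tissues and macrophages, stood at 5.94 and 5.49 FPKM, a read ratio of 0.959 with an interval of 0.829 to 1.11 that includes 1. Sik3 (70661), the third kinase, was at 12.0 and 10.4 FPKM, giving a read ratio of 0.875 (0.782 to 0.978). The interval of Sik1 thus overlapped neither of the others. Exons of Sik2 overlap those of Ppp2r1b on the opposite strand in GENCODE M21, with the use of strand in counting not given in the sources used here, so its level is less certain.

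The makeup of the family differed between the libraries. Summed over the 3 kinases, the level was 53.0 FPKM in the healthy library against 25.0 FPKM in the leukemia library. Sik1 made up 66.2% of that sum in the healthy library and 36.3% in the leukemia library. The share of Sik3 went from 22.6% to 41.7% and that of Sik2 from 11.2% to 22.0%. Sik1 was 2.93 times the level of Sik3 in healthy Treg cells and 0.869 times in the leukemia library.

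Crtc2 (74343) and Crtc3 (70461) encode coactivators that enter the nucleus when salt-inducible kinases are inhibited. Crtc2 had the highest level of the 10 genes in each library, at 43.1 FPKM in healthy against 38.8 FPKM in leukemia, with a read ratio of 0.889 (0.809 to 0.976). Crtc3 was at 19.4 and 15.4 FPKM, giving a read ratio of 0.784 (0.707 to 0.869). Both were lower in the leukemia library by less than 2-fold. Crtc1, the form best known from brain, was at 4.38 and 4.98 FPKM, and its interval of 0.936 to 1.36 includes 1. The order within the family was the same in each library, with Crtc2 at 64.5% and 65.6% of the summed level, Crtc3 at 29.0% and 26.0%, and Crtc1 at 6.55% and 8.43%.

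Creb1 (12912) encodes the factor that binds the cAMP response element, and stood at 21.7 FPKM on 1354 reads and 17.1 FPKM on 1068 reads, a read ratio of 0.792 (0.730 to 0.858). Crem (12916), which gives rise to activators and, from an internal promoter, to the repressor ICER, had the fewest reads of the 10 genes, 138 and 115. Its levels of 6.37 and 5.80 FPKM gave a read ratio of 0.836 with a wide interval of 0.647 to 1.08, so that no difference was detectable at this depth. The table lists 47 transcripts for Crem, and the gene value does not separate ICER from the activators. The length that RSEM reports, a mean over transcripts weighted by their estimated share, was 2416 bases in the healthy library against 2217 bases in the leukemia library for Crem, a change of -8.23%. Over 6495 genes with several transcripts and at least 100 reads in each library the median absolute change was 0.674%, and 3.25% of them changed more than Crem. Lengths of Sik2 (3.76%) and Pde4b (4.39%) also moved more than that median, while 12.2% and 9.98% of genes changed more than these. No interval can be given for such lengths. Crem exons overlap the opposite-strand gene Gm6225.

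Phosphodiesterases of the PDE4 family degrade cAMP and are the main such enzymes of immune cells. Pde4b (18578), a form induced by antigen receptor and inflammatory signals, was at 21.7 FPKM on 707 reads in the healthy library against 13.0 FPKM on 443 reads in the leukemia library. Its log2 ratio of -0.69 and read ratio of 0.629 (0.557 to 0.709) were the second lowest of the set, and 4.40% of all genes had a lower log2 ratio. Foxp3 in the same libraries had a log2 ratio of -0.72. Pde4d (238871) was at 7.23 and 5.76 FPKM, giving a read ratio of 0.803 (0.703 to 0.915). Pde3b (18576), the cGMP-inhibited enzyme repressed by Foxp3, was at 6.62 and 5.24 FPKM, giving a read ratio of 0.802 (0.677 to 0.948). Pde4d and Pde3b lay slightly lower in leukemia, with intervals close to each other.

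Ordered by level, the healthy library ran from Crtc2 and Sik1, each apart from its neighbours, to Creb1, Pde4b and Crtc3, whose neighbouring counting intervals overlapped. Sik3 followed on its own, and Pde4d, Pde3b, Crem and Sik2 were not separable from their neighbours. In the leukemia library Crtc2 was again first. Creb1, Crtc3 and Pde4b followed with neighbouring intervals overlapping, then Sik3 and Sik1, whose intervals overlapped, and the last places were held by Crem, Pde4d, Sik2 and Pde3b, again not separable from their neighbours. Sik1 thus moved from rank 2 to rank 6, and no other gene moved by more than 2 places.

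**Figure D2:**
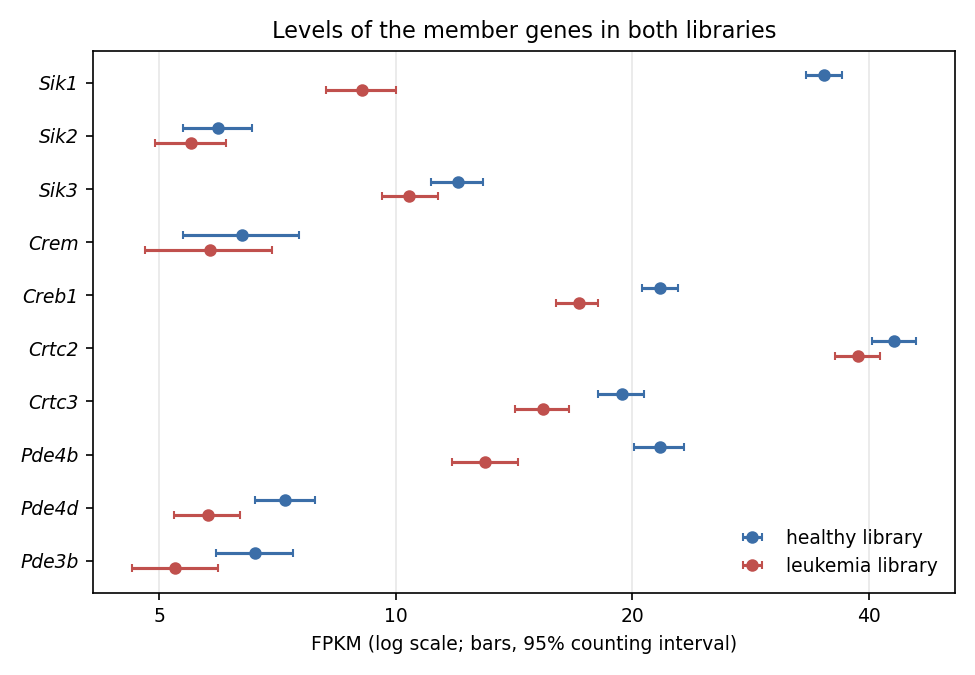
FPKM of the 10 genes in the healthy and the leukemia library on a log axis, with 95% counting intervals as bars. Sik1 goes from 35.1 to 9.05 FPKM, and the intervals of the libraries overlap for Sik2, Sik3, Crem and Crtc2, and for Pde3b they only just do.

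The remaining phosphodiesterases were measured beside these from a list of 17 further genes, of which 10 reached 1 FPKM. Of the 10, 0 were at least 2-fold lower and 1 was at least 2-fold higher, with a median log2 ratio of -0.22. For all measured genes the share 2-fold higher was 6.55%. The higher gene was Pde4a, another PDE4 form, at 0.770 FPKM on 29 reads in healthy and 3.14 FPKM on 117 reads in leukemia, a read ratio of 4.05 (2.68 to 6.31). Pde4a thereby made up 2.48% and 13.8% of the summed PDE4 level, while Pde4b went from 69.7% to 57.1% and Pde4d from 23.3% to 25.2%. The summed PDE4 level was 31.1 FPKM in healthy against 22.8 FPKM in leukemia. Pde2a, a cGMP-stimulated enzyme, was the highest cyclic nucleotide phosphodiesterase in each library, at 27.6 and 18.1 FPKM (-0.58). Pde8a (-0.40) and Pde4c (-0.35) were low and under 2-fold. Pde6d and Pde12 carry the family name but are not cyclic nucleotide phosphodiesterases: the first encodes a carrier of prenylated proteins, and the second acts on oligoadenylates and RNA. Without them, the 18 genes, members included, summed to 102 FPKM in healthy against 76.9 FPKM in leukemia, a ratio of 0.756.

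**Figure D3:**
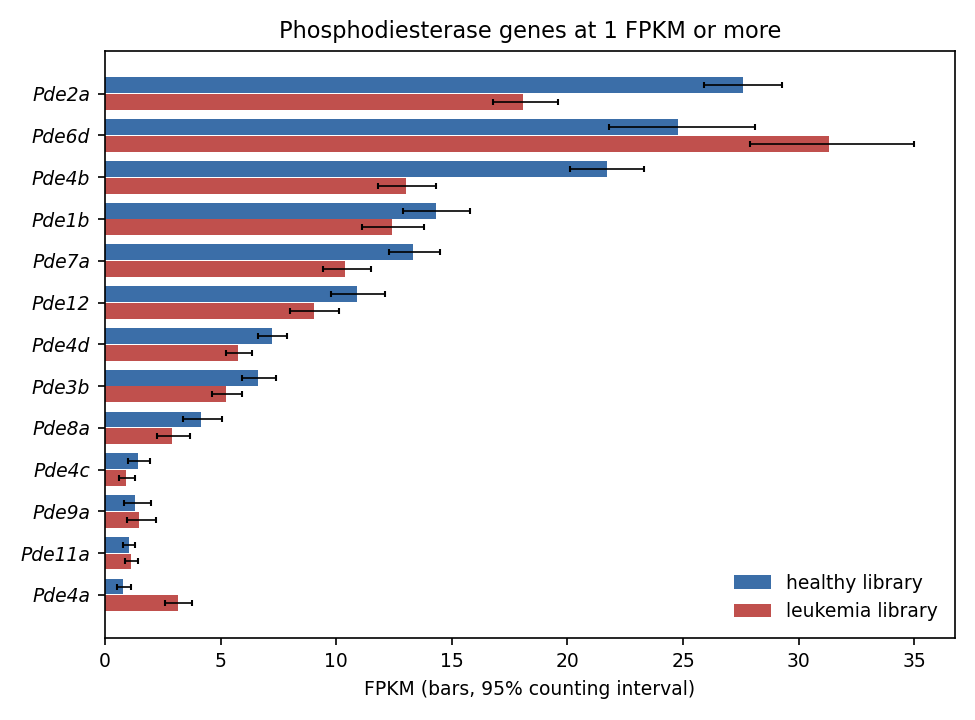
FPKM of the 13 phosphodiesterase genes that reached 1 FPKM, with 95% counting intervals. The leukemia library is lower for Pde2a, Pde4b, Pde4d and Pde7a beyond those intervals and higher for Pde4a, which reaches 3.14 FPKM; Pde6d and Pde12 do not act on cyclic nucleotides.

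Upstream of the phosphodiesterases, receptors and cyclases were slightly lower or level. Of 9 measured receptor and G protein genes none was 2-fold different, and their median was -0.01. The receptor gene Vipr1 for vasoactive intestinal peptide was at 10.1 and 6.10 FPKM (-0.64), and the prostaglandin E2 receptor gene Ptger4 at 23.4 and 15.6 FPKM (-0.56). Their read ratios of 0.604 and 0.667 had intervals below 1. Gnai2, encoding an inhibitory G protein subunit, was at 381 and 422 FPKM. Of 10 adenylyl cyclase genes 3 were measured, with a median of -0.35. Adcy7, the form typical of blood cells, led them at 43.2 and 37.7 FPKM (-0.19), followed by Adcy3 (-0.35) and Adcy6 (-0.53). All 3 had intervals below 1.

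Among 16 measured genes of protein kinase A, its anchors and other cAMP sensors, 3 were at least 2-fold higher, 0 were lower and the median was -0.16. Over all measured genes 6.55% were 2-fold higher and 1.95% lower. The 3 higher genes encode inhibitory or regulatory proteins of the kinase. The inhibitor gene Pkib was at 1.24 FPKM on 19 reads in healthy and 11.4 FPKM on 176 reads in leukemia (2.47, read ratio 9.30, interval 5.78 to 15.8). The inhibitor gene Pkig was at 4.76 and 15.1 FPKM (1.48), and the regulatory subunit gene Prkar2b at 1.95 and 6.67 FPKM (1.38). The other regulatory subunit genes were under 2-fold and went both ways. Prkar1a, the most abundant, was at 112 and 99.4 FPKM (-0.17), Prkar1b at 1.49 and 0.880 FPKM (-0.41), and Prkar2a at 4.61 and 6.60 FPKM (0.44). Of the catalytic subunit genes, Prkacb was the more abundant, at 56.2 and 44.0 FPKM (-0.35), and its read ratio was 0.783 (0.735 to 0.835). Prkaca was at 23.1 FPKM in each library, and its interval of 0.880 to 1.14 includes 1. Akap1, an anchor on mitochondria, was just under 2-fold at 0.93. The progenitor and leukemia markers were higher in the same library, and their part in these levels was not tested.

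Most kinases around the salt-inducible kinases were near level. Of 12 measured upstream and related kinase genes none was 2-fold different on the log2(FPKM + 1) scale, and their median was -0.03. Stk11, which encodes LKB1, was at 48.1 and 53.0 FPKM (0.14). Its partner Strada was at 0.39 and the related kinase Snrk at -0.33. Nuak2, at 2.11 and 4.82 FPKM (0.90), had a read ratio of 2.19 (1.60 to 3.04). Brsk1, on 4 and 21 reads (0.81), had a read ratio of 5.27 (1.78 to 21.1). Both were low in level and higher in the leukemia library, and with a pseudocount of 0.1 FPKM both were past 2-fold, at 1.15 and 2.09. Of 12 further substrates and 14-3-3 binding proteins, 1 was higher and 0 lower, with a median of 0.18. A share of 6.55% of all measured genes was 2-fold higher. Hdac9, a class IIa histone deacetylase, was the higher gene at 0.450 and 2.01 FPKM (1.05, on 19 and 82 reads), and Hdac5 of the same class was at 10.6 and 15.8 FPKM (0.54). The 14-3-3 genes Ywhae and Sfn lay on opposite sides, at 0.63 and -0.52. Of 8 measured further CREB factors and coactivators none was 2-fold different. The acetyltransferases that CREB recruits, Crebbp at 14.9 and 9.84 FPKM (-0.55) and Ep300 (-0.45), had the largest ratios, followed by Creb3 (-0.25) and Atf1 (0.12).

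**Figure D4:**
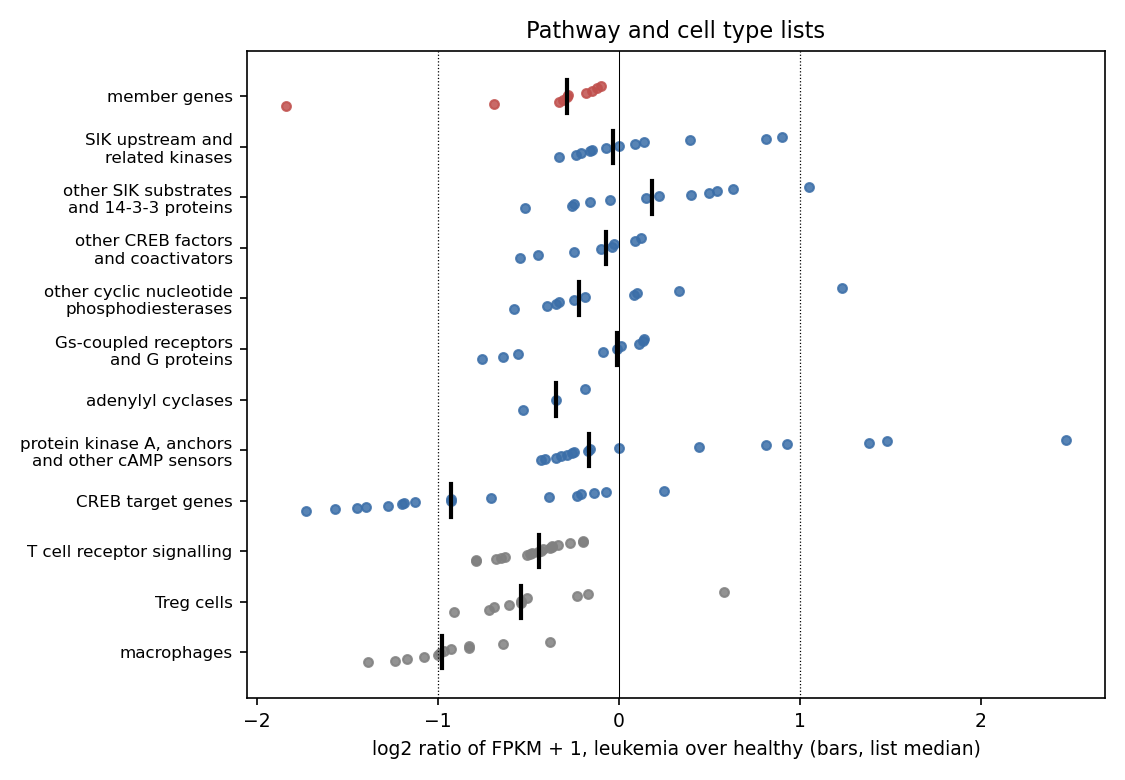
Log2 ratio of every measured gene in the 10-gene set, 8 further pathway lists and 3 cell type lists; vertical bars are list medians and dotted lines mark 2-fold. The CREB target list, with a median of -0.93, and the macrophage list, with a median of -0.98, are shifted furthest to lower values.

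Most genes of a list of known CREB targets were lower in the leukemia library, as was Sik1. The list was chosen with earlier results of these data known, so its counts are a description. Of its genes, 8 are also early response genes, and 5 of these 8 were at least 2-fold lower. Of 17 measured targets 8 were at least 2-fold lower and 0 were higher, and 16 were below 0, with a median of -0.93. Among all measured genes 1.95% were 2-fold lower, 6.55% were higher and 46.9% were below 0. Centred on the T cell receptor signalling genes, 3 of the 17 were 2-fold lower and the median was -0.49. On that scale 101 of the 13717 genes were 2-fold lower. The lowest were Ppp1r15a, a stress-induced phosphatase subunit (271 and 80.9 FPKM, -1.73), and Dusp1, a phosphatase of MAP kinases (214 and 71.3 FPKM, -1.57). Nr4a1, a nuclear receptor, was at 101 and 36.4 FPKM (-1.45), and these 3 stayed past 2-fold when centred. Fos and Fosb, subunits of the AP-1 factor, were at 142 and 53.3 FPKM (-1.40) and at 68.7 and 27.6 FPKM (-1.28). The AP-1 gene Junb (-1.19), the G protein regulator Rgs2 (-1.20) and the growth factor gene Areg (-1.13, on 52 and 18 reads) were also past 2-fold, and fell short of it when centred. The targets did not all move alike. Egr1 (-0.21), Nr4a3 (-0.23), Bcl2 (-0.07) and Il10 (-0.14) were only slightly lower, and Per2 (0.25) was higher. Antigen receptor signals and handling of cells induce many of the target genes as well, and the list does not separate those inputs from cAMP. The macrophage markers were lower in the same library by a median of -0.98; their part was not tested.

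**Figure D5:**
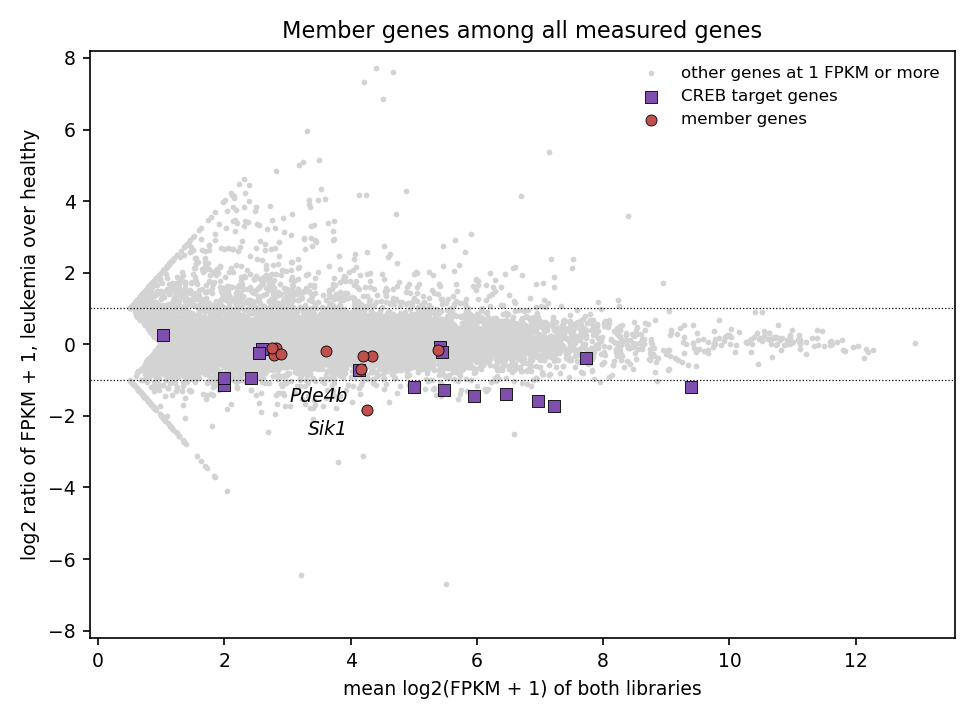
Log2 ratio of each gene that reached 1 FPKM, plotted against its mean log2(FPKM + 1) over both libraries; circles are the 10 genes, squares the CREB targets, grey points all others, and dotted lines mark 2-fold. Sik1 at -1.84 lies below 2-fold with 8 of the targets, and the other 9 circles lie between -0.69 and -0.10.

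The cAMP response element has the palindromic core TGACGTCA and the shorter core TGACG. Each was searched on both strands in RefSeq promoter windows of assembly GRCm38.p6, which run from 250 bases before to 50 bases after a start site; the longer core contains the shorter on each strand. Of 32851 windows 1.79% held the longer and 20.8% the shorter core. These are shares of windows, whereas a gene below was counted when any of its windows held the core, so they are not directly comparable. Windows were searched for 6 of the 10 genes (Sik2, Sik3, Creb1, Crtc3, Pde4b and Pde4d). No window was counted for Sik1, Crem, Crtc2 and Pde3b, so whether their promoters hold the cores was not tested. Windows of listed genes on a chromosome set aside were not searched, though the count over all windows kept that chromosome. The longer core occurred in 0 and the shorter in 3 of the 6, namely Sik2, Sik3 and the first of 4 Pde4b windows. All 8 targets that were 2-fold lower had a window, 8 with the shorter and 3 with the longer core. The other targets with a window were 6 in number, all with the shorter and 0 with the longer core. These genes were listed because CREB is known to act on them, so the matches are a description and not support for binding here.

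The stretches below, all before the start site and read 5′ to 3′ on the gene's strand, show those matches in 2 members and in 5 of the lower targets, with the cores in capitals; positions count back from -1, the base before the start.
Sik3, chr9:46012680-46012779, plus strand, positions -140 to -41: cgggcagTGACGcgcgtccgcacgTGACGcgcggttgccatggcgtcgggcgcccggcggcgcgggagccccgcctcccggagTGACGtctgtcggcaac
Pde4b, chr4:102421475-102421554, plus strand, positions -80 to -1: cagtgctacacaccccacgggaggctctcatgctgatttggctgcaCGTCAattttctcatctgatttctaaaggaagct
Dusp1, chr17:26508603-26508672, minus strand, positions -200 to -131: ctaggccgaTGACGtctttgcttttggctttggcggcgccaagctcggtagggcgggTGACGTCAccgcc
Areg, chr5:91139519-91139568, plus strand, positions -80 to -31: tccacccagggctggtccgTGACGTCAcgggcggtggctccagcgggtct
Ppp1r15a, chr7:45526269-45526328, minus strand, positions -60 to -1: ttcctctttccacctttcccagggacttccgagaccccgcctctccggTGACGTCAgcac
Fos, chr12:85473800-85473849, plus strand, positions -90 to -41: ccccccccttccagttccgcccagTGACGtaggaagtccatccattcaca
Nr4a1, chr15:101266756-101266825, plus strand, positions -90 to -21: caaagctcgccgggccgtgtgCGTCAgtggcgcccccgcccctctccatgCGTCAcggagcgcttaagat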

How the data were processed

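RNA sequencing of sorted mouse Treg cells gave 1 library for each of 2 groups, assigned by the disease state in the labels. Reads were handled with Bowtie2 2.2.5 and RSEM, as named per the submitters' processing notes, with RSEM's version, the genome build and the annotation not given in the sources used here. The tables hold, per the file headers, what the authors deposited for each NCBI Gene ID: RSEM's expected count (estimated reads), an FPKM value and a length in bases. A gene in only 1 table was taken as 0 in the other. All 10 members matched by ID in RefSeq GRCm38.p6, used for names and for the promoter windows. Of 23248 IDs, 1513 had no symbol. From these, log2((FPKM + 1) leukemia / (FPKM + 1) healthy) was computed for the 13717 genes that reached 1 FPKM in at least 1 library, with no test, since a group held 1 library. Read ratios used expected counts rounded to whole numbers and divided by library totals, with exact Clopper-Pearson 95% intervals in scipy 1.17.1; FPKM intervals are exact Poisson. Intervals cover counting error only, and their calculation was tested on simulated data. TMM scaling was run in edgeR 4.0.16. RSEM shares reads between similar genes by estimate. The members, 8 further pathway lists and 9 marker lists were chosen with earlier results of these data known. Named genes were all members, up to 4 genes per pathway list with the largest absolute ratio, and any past 2-fold. Stk11, Crtc1, Prkaca, Prkacb, Prkar1a, Prkar1b, Prkar2a, Pde6d, Pde7a, Pde12 and Ms4a3 were named outside that rule after their values were seen. The same holds for Egr1, Nr4a3, Bcl2, Il10, Per2, Cd8b1, Bst2, Cxcr2 and Flt3. Of the listed genes, 2 were in neither table. The alternatives are a pseudocount of 0.1 FPKM, 5 other scalings, no filter and a filter of 5 FPKM. Of the genes that rule names, 1 is not reported here.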

Additional observations from a re-analysis of the deposited data

How the results depend on the processing

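All 10 members kept their side of the 2-fold mark under each of 8 alternatives. Dropping the filter or raising it to 5 FPKM leaves a gene's ratio unchanged, so these alternatives could not move a member. Of 87 other measured pathway genes 75 kept their side in every alternative that retained them, since the minimum of 5 FPKM removes some. The count of members at least 2-fold lower (1) and higher (0) held in all 8. Setting the median of T cell receptor signalling genes to 0 (centring) turned the members' median log2 ratio from -0.29 to 0.15 and took the CREB targets past 2-fold from 8 to 3; these follow from the shift by 0.44 that centring adds, which raised the median of all genes to 0.46. Over all genes, 267 were 2-fold lower; this became 493 with a pseudocount of 0.1 FPKM, 414 with FPKM rescaled to 1000000, 413 with rescaling that left out genes of other cells, 135 under a minimum of 5 FPKM and 101 after centring. The 898 higher genes became 590 under that minimum and 1973 when centred; the higher minimum tests fewer genes. The kinase relatives past 2-fold went from 0 to 1 or 2 and the protein kinase A genes from 3 to 5 in some alternatives, and the 4 macrophage markers past 2-fold went to 7 or 8 and, when centred, to 0; beyond the shift that centring adds, the cause was not tested. No replicate could be left out with 1 library in a group. No paired analysis was possible because each group held 1 library. Counting depth limits Crem most.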
